A study of Mus musculus with 17 samples.

Results

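The genes described here are 10 genes of osteoclast differentiation and bone resorption, chosen by name, with earlier results of these data known: Tnfrsf11a, Oscar, Nfatc1, Dcstamp, Ocstamp, Atp6v0d2, Clcn7, Acp5, Ctsk and Calcr. Each was read from the probe sets (groups of array probes for 1 transcript) annotated to its symbol alone. All 10 genes had such a probe set, 19 probe sets in all, among 18193 genes with a named probe set. Of the 10 genes 8 were bright enough to be tested, among 14504 genes tested.

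RNA of sorted mouse skeletal stem cells (mSSC), the source of bone, cartilage and stroma, and of their downstream progenitors (mBCSP) was measured on 17 Affymetrix mouse arrays. All mice were female C57BL/6 mice, operated at 8 weeks of age where surgery is stated and, where injured, given a pinned transverse femoral fracture at 14 weeks, with harvest 7 days later. Ovariectomy (OVX) removed the ovaries and with them every ovarian hormone, a sham operation left them in place, and E2 denotes systemic 17-beta estradiol released continuously from a pellet placed when the ovaries were removed. The study reports that serum estradiol of OVX + E2 mice lay above that of sham mice, so E2 here is a dose above the sham level. Cells were stained for CD45, Ter119 and Tie2, which mark blood and endothelial cells that the gate leaves out, and for alpha V integrin, CD200 and CD105, which define the sorted populations.

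Fracture callus gave 4 arrays of sham mice, 2 of OVX mice and 2 of OVX + E2 mice, each with as many mSSC as mBCSP arrays. A further 2 callus arrays have conflicting labels, with OVX in the title and source name and sham in the treatment tag, and 2 callus arrays have no stated ovary surgery. Uninjured bone gave 3 arrays of sham mice (2 mSSC, 1 mBCSP) and 2 of OVX mice. The title codes take 3 forms. Form A (ovary state, population) is held by 6 callus arrays, a pair of mSSC and mBCSP each from sham, OVX and OVX + E2 mice. Form B (ovary state, injury, population) is held by 7 arrays and form C (population, injury) by 4. The study describes its data in general as biological replicates, but neither its methods nor the labels tie single arrays to mice or say that the forms were processed apart. The p-values therefore measure the spread between these arrays, part of which may be technical. The mSSC and mBCSP arrays of a group are its only replicates within a form. In the fits by group the errors therefore rest on how the difference between the populations varies among pairs. The fits of callus against uninjured bone and of its interaction have no term for ovary state, so their errors also hold differences between the ovary groups.

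Osteoclasts are multinucleated cells of the myeloid lineage that dissolve bone mineral with acid and digest its matrix with proteases. RANKL and the cytokine CSF1, made by stromal and bone-forming cells, act on myeloid precursors, in which NFATc1 switches on the genes of cell fusion and resorption. Estrogen restrains osteoclast formation in the intact skeleton, and loss of the ovaries is a classical setting of increased resorption. Several of these genes are also read in other cells, such as Acp5 in macrophages and Ctsk in mesenchymal cells of the periosteum.

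The labelled cell type was checked against marker lists. Ptprc, which encodes CD45, had log2 signals of 13.79 to 14.74 on the uninjured arrays and of 6.58 to 13.53 on the callus arrays, although CD45+ cells were gated out. Osteoblast genes (6 measured) had mean log2 signals of 11.35 to 12.41 on callus and 7.77 to 10.62 on uninjured arrays. Spearman correlations between arrays ran from 0.776 to 0.972. Values are log2 signals after quantile normalization, with a floor of 5.95 under which a signal was not read. Probe sets bind with different strength, so levels are compared between arrays for 1 probe set and never between genes.

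The promoters of 2 genes are shown first, Ctsk because it passed the test between callus and uninjured bone, and Acp5 because both OVX + E2 arrays lay above all other arrays for it. The sequences are the 250 bases before the start of the gene in the RefSeq promoter table (GRCm38.p6), read 5′ to 3′ on the gene's strand, Ctsk at chr3:95498960-95499209 (+) and Acp5 at chr9:22135747-22135996 (-). Capitals mark, on either strand, the core GGAAA bound by NFAT proteins, GAGGAA bound by PU.1, the AP-1 element TGANTCA, and the E-boxes CACGTG and CATGTG bound by MITF. A GAGGAA that is followed by an A also holds GGAAA, so these cores can overlap.
Ctsk: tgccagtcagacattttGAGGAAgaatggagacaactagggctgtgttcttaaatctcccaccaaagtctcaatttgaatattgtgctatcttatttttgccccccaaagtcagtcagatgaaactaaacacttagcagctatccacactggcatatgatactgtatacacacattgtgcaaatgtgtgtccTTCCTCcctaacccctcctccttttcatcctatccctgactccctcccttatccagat
Acp5: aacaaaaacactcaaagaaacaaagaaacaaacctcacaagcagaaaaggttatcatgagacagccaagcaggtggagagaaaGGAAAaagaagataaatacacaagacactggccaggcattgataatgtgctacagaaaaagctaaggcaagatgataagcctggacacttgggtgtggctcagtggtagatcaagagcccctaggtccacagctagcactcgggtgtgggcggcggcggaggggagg
Ctsk holds 2 copies of GAGGAA, at 233 and 58 bases before the start, and none of the other motifs. Acp5 holds 1 copy of GGAAA, at 167 bases before the start. The promoter table lists 3 starts for Acp5 and 1 for Ctsk, and only the first listed start of a gene was searched. GGAAA is found in 55.6% and GAGGAA in 23.1% of the 27025 promoter windows of this length, TGANTCA in 6.87%, CACGTG in 6.05% and CATGTG in 12.2%. A match is a description of these letters, and of the 10 genes 6 had an entry that was searched (Acp5, Ctsk, Oscar, Calcr, Tnfrsf11a and Clcn7).

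**Figure D1:**
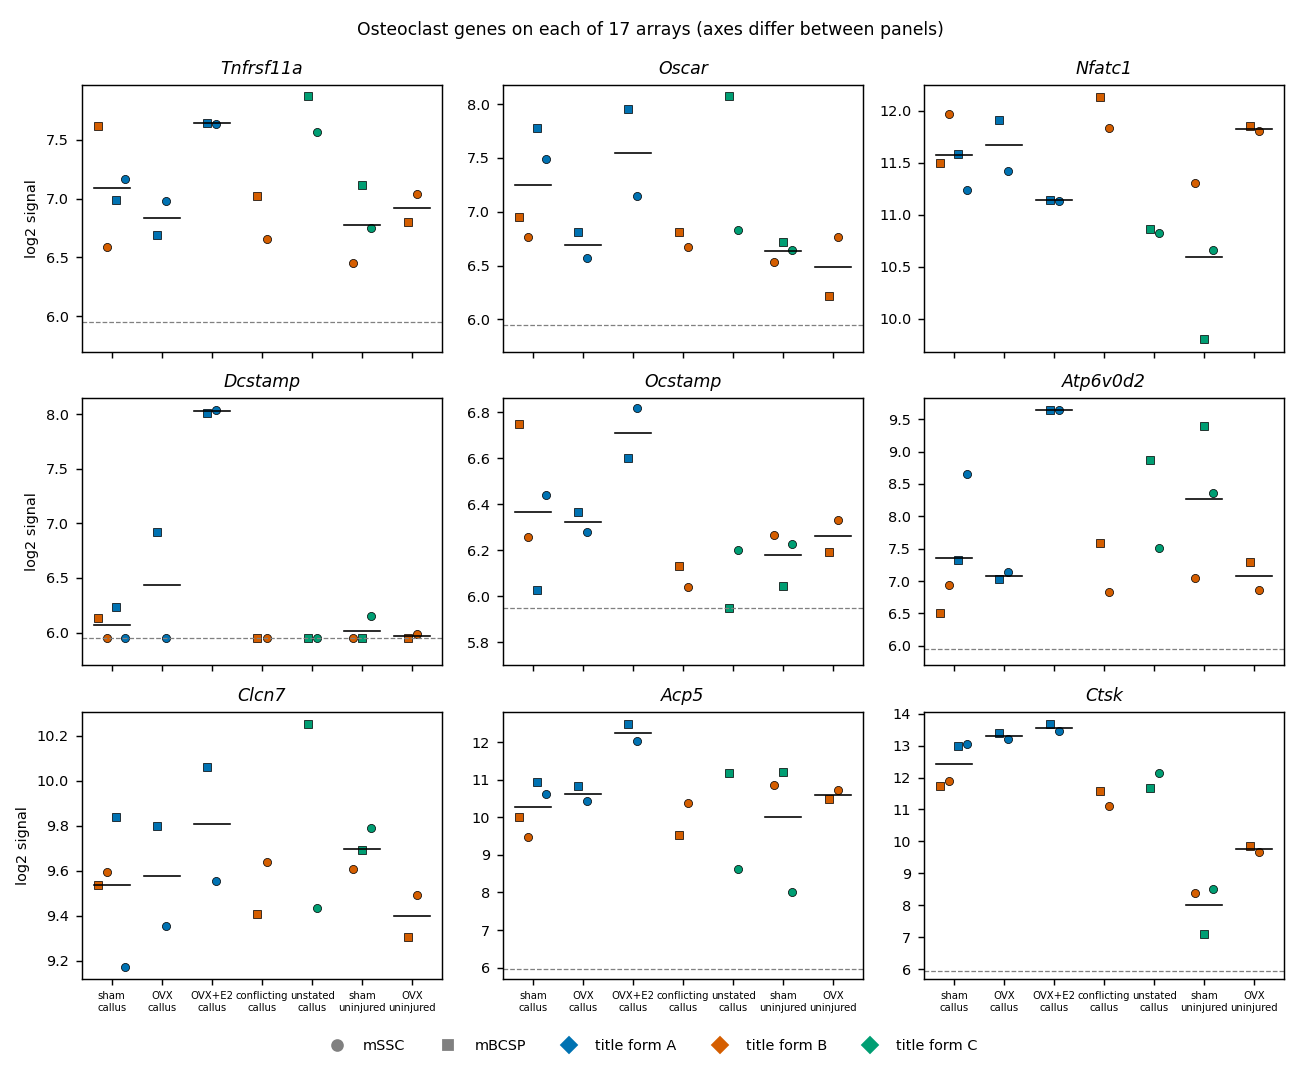
Normalized log2 signal (vertical axes) of 9 osteoclast genes by group of arrays (horizontal axes), 1 point for each of 17 arrays. Circles stand for mSSCs and squares for mBCSPs, the colour shows title form A, B or C, black lines mark group means where the ovary surgery is settled and a dashed line the floor where it lies in the panel. Calcr is left out because it lay at the floor on all 17 arrays. Ctsk separates callus from uninjured bone, and both OVX + E2 arrays lie above the other callus arrays for Dcstamp, Atp6v0d2 and Acp5.

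Injury was compared first, with 12 callus against 5 uninjured arrays pooled over ovary state. Form A holds callus arrays only, so with the form as a term the difference rests on the 6 callus and 5 uninjured arrays of forms B and C. Ctsk, the cathepsin that cleaves collagen in resorption, rose in callus, and 7 other genes did not pass the test. The log2 fold change of Ctsk was 2.96 (SE 0.36), a 7.75-fold rise with a 95% interval of 4.58 to 13.1, and it passed limma's test at an adjusted p of 8.92e-06. That is 1 called gene of 8 tested, where 42.4% of all tested genes were called in this comparison, 22.6% higher and 19.8% lower in callus. The count of members is thus below the background share, and the call is a result about Ctsk and not about the group.

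Tnfrsf11a encodes RANK, the receptor of RANKL. Its log2 signal ran from 6.59 to 7.87 on callus and from 6.45 to 7.12 on uninjured arrays, so the groups overlapped, with a log2 fold change of 0.40 (SE 0.23, limma, adjusted p = 0.181). Oscar, a costimulatory receptor that recognises collagen, ran from 6.57 to 8.07 on callus and from 6.22 to 6.77 on uninjured arrays. Its log2 fold change was 0.44 (SE 0.25, adjusted p = 0.18 by limma).

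Nfatc1 was measured by 5 probe sets that disagreed. The brightest had a log2 fold change of 0.35 in callus (SE 0.20, limma, adjusted p = 0.181). Of the other 4, each tested alone, 1 rose by 1.20 (SE 0.24, limma, adjusted p = 0.00088), with log2 signals of 9.78 to 11.68 on callus and 9.20 to 10.17 on uninjured arrays. The remaining 3 stood at 0.16, -0.14 and -0.08. Only 1 of 5 probe sets passed, so a rise of Nfatc1 in callus depends on the probe set read.

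Dcstamp, the membrane protein that precursors need to fuse, lay at the floor on 7 of 12 callus and 3 of 5 uninjured arrays. It reached the level of the filter, 7.20, on the 2 OVX + E2 arrays only. Its log2 fold change between callus and uninjured bone, -0.03 (SE 0.34), is therefore not interpreted. Dcstamp is still drawn in the figures of fold changes and counted among the tested genes and in their median. Ocstamp, a related fusion protein, ran from 5.95 to 6.82 over all arrays and was too dim to be tested. Calcr, the receptor of the hormone calcitonin and a marker of mature osteoclasts, lay at the floor on all 17 arrays. Its level could not be told from background here.

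Atp6v0d2, a subunit of the osteoclast proton pump that also takes part in fusion, ran from 6.50 to 9.64 on callus and from 6.87 to 9.39 on uninjured arrays. Its log2 fold change was -0.35 (SE 0.49, limma, adjusted p = 0.61), and its other probe set gave 0.32. Clcn7, the chloride-proton exchanger that accompanies acid secretion and works in the lysosomes of all cells, stood at 0.06 (SE 0.18). Acp5, tartrate-resistant acid phosphatase, the classical stain for osteoclasts, ran from 8.62 to 12.47 on callus and from 8.01 to 11.19 on uninjured arrays, with a log2 fold change of -0.49 (SE 0.51). Within form B it ran from 9.48 to 10.37 on callus and from 10.49 to 10.85 on uninjured arrays, a mean difference of -0.84. Within form C the mean difference was 0.30, so the forms did not point the same way. Neither Clcn7 (adjusted p = 0.818) nor Acp5 (adjusted p = 0.481) passed limma's test.

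The values of Ctsk on single arrays show the size of its rise. On the form A arrays it stood at 12.99 (sham mBCSP), 13.04 (sham mSSC), 13.39 (OVX mBCSP), 13.22 (OVX mSSC), 13.67 (OVX + E2 mBCSP) and 13.46 (OVX + E2 mSSC). On the callus arrays of form B it stood at 11.72 (sham mBCSP), 11.91 (sham mSSC), 11.57 (conflicting mBCSP) and 11.10 (conflicting mSSC), and on those of form C at 11.68 (mBCSP) and 12.15 (mSSC). Uninjured bone gave 8.40 (sham mSSC, form B), 9.86 (OVX mBCSP), 9.66 (OVX mSSC), 7.10 (sham mBCSP, form C) and 8.52 (sham mSSC, form C). All callus arrays lay above all uninjured arrays, and all form A arrays lay above the callus arrays of the other forms.

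Within form B the mean of Ctsk was 2.27 higher in callus (4 arrays against 3), and within form C 4.11 higher (2 against 2). The brightness of Ctsk over the 17 arrays was most like that of Antxr1 (Spearman rho 0.99), which encodes a receptor for collagen and anthrax toxin, and of Dclk1 (0.98) and Fndc1 (0.978). This likeness is a description over arrays that share injury and title form.

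**Figure D2:**
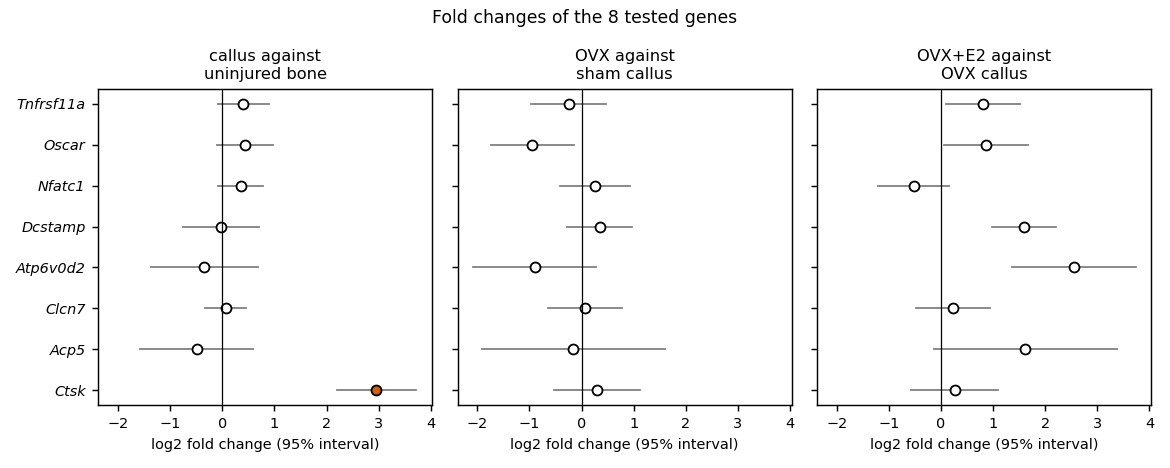
Log2 fold changes (points) and 95% intervals (lines) of the 8 tested genes in 3 comparisons, filled where limma's adjusted p was under 0.05. Ctsk in callus is the only filled point. In OVX + E2 against OVX callus 7 of 8 points lie right of 0, where 53.3% of all tested genes were higher. Dcstamp was tested only because it was bright on the OVX + E2 arrays.

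The wider osteoclast pathway was described by 7 lists of related genes, 65 of them tested, of which 9 rose and 26 fell in callus, beside 22.6% and 19.8% of all genes. Their median log2 fold change was -0.37, against 0.02 over all tested genes and 0.21 over the 8 genes above. The last value includes Tnfrsf11a, Oscar and Dcstamp, which entered the test through callus arrays alone. Of 15 genes of RANK and costimulatory signalling 2 rose. These were Tnfsf11, which encodes RANKL and is made by stromal and bone-forming cells (2.58, limma, adjusted p = 0.000373), and Src, a kinase of many cells that shapes the osteoclast's ruffled border (1.89).

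In the same list 8 genes fell, among them the kinases Btk (-2.69) and Syk (-2.58), the adaptors Tyrobp (-2.34) and Fcer1g (-2.23), and the receptor Csf1r (-2.27). Tnfrsf11b, which encodes osteoprotegerin, the decoy receptor of RANKL, stood at 0.99 (adjusted p = 0.099 by limma). Of 7 transcription factors tested, Spi1, which encodes PU.1, fell (-1.70) and the others did not pass. The inhibitory factors Irf8 (-1.61) and Bcl6 (-0.75) fell as well.

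Acid and vesicle genes pointed down in 15 of 15, of which 8 passed the test. The pump subunits Atp6v1b2 (-1.34), Atp6v1e1 (-1.15) and Tcirg1 (-0.79) fell, as did Ostm1 (-1.48), the partner of the exchanger that Clcn7 encodes. Of the matrix proteases Mmp14, a membrane-bound collagenase common in mesenchymal cells, rose the most (3.86, limma, adjusted p = 1.57e-08), and Ctsl rose by 0.57. Mmp9 fell (-1.87), as did Ctss (-2.07), a cathepsin of antigen-presenting cells. Among relatives of the 10 genes, Nfatc4 (2.07), Clcn4 (1.40), Clcn5 (1.38) and Ramp2 (1.45) rose and Calcrl (-2.68), a receptor related to that of calcitonin, fell. Fusion and sealing genes fell for 4 of 7 (Sirpa, Adam8, Cd44 and Cd47), and Itgav, whose protein was itself selected in the sort, rose (1.06).

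Lists of other cell types moved with injury too. Leukocyte genes fell in 6 of 6, macrophage and monocyte genes in 8 of 15 and neutrophil genes in 5 of 11. Osteoblast genes rose in 6 of 6 and cartilage genes in 7 of 7. The summed log2 signal of the leukocyte list was 10.69 to 15.64 on callus and 16.33 to 16.60 on uninjured arrays, that of the macrophage list 12.75 to 15.66 and 15.85 to 16.38, and that of the osteoblast list 15.72 to 16.11 and 11.22 to 15.11. The defining markers Itgam (-3.00), Adgre1 (-2.37), Csf1r (-2.27) and Cd68 (-1.60) fell with them, and Itgam lay at the floor on 2 and Adgre1 on 4 of 12 callus arrays. The part of these cells in the values of the osteoclast genes was not tested, and fewer cells of a type cannot be told apart from less RNA per cell in such bulk samples. Ctsk moved against the myeloid lists and with the osteoblast and cartilage lists.

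**Figure D3:**
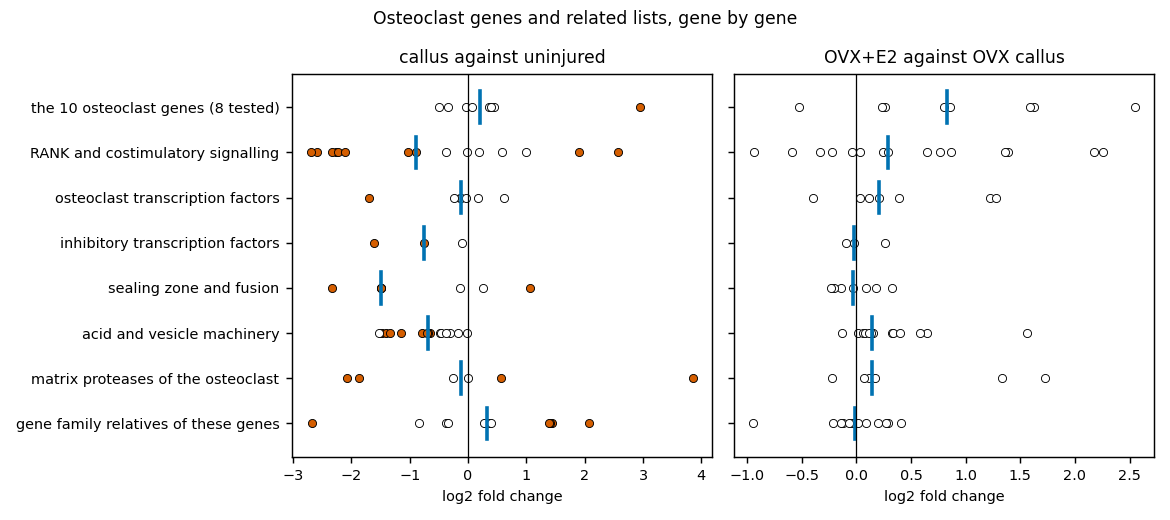
Log2 fold change of each tested gene (points) in the 10 osteoclast genes and 7 related lists, filled where limma's adjusted p was under 0.05, with list medians as blue lines. In callus against uninjured bone (left) the signalling, fusion and acid lists have medians of -0.89, -1.49 and -0.68. The right panel, for E2 given with OVX, has no filled point.

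Whether injury acted alike in both populations was tested by an interaction term. It called 0% of all genes (0 by limma, 625 at an unadjusted p under 0.05) and none of the 8. Its value, the callus difference in mSSCs minus that in mBCSPs, was -0.74 (SE 0.43, limma, adjusted p = 0.986) for Oscar and -0.54 (SE 0.31) for Clcn7. The 95% intervals ran from -1.65 to 0.17 for Oscar and from -1.19 to 0.11 for Clcn7, so a difference of that size between populations was not detectable here.

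Between mSSCs and mBCSPs limma called 0% of all genes (0, with 1401 at an unadjusted p under 0.05) and 0 of the 8. Acp5 was the furthest apart, with a median log2 signal of 10.43 in 9 mSSC and 10.89 in 8 mBCSP arrays and a fitted log2 fold change of -0.80 in mSSCs (SE 0.40, limma, adjusted p = 0.55). The populations overlapped, since mSSC arrays ran from 8.01 to 12.03 and mBCSP arrays from 9.52 to 12.47. Oscar stood at -0.30, Clcn7 at -0.23, Atp6v0d2 at -0.21 and Tnfrsf11a at -0.17. Dcstamp, at the floor on 10 of 17 arrays, stood at -0.15. All 8 endothelial genes pointed lower in mSSCs (median -1.99).

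Loss of ovarian hormones was compared in callus as OVX against sham. Because the fit holds a term for the title form, this comparison rests on 2 OVX and 2 sham arrays of form A. Limma called 0% of all genes (0, with 293 at an unadjusted p under 0.05) and 0 of the 8, of which 4 pointed up and 4 down, with a median log2 fold change of -0.04 against -0.02 over all genes. No rise of resorption genes with OVX was detectable on these arrays. Blood-cell markers pointed lower on the same OVX arrays, 12 of 15 macrophage and monocyte genes (median -0.45), 10 of 11 neutrophil genes (median -0.56) and 5 of 6 leukocyte genes (median -0.67), none called, and their part in the values below was not tested.

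Oscar had log2 signals of 7.78 (mBCSP) and 7.49 (mSSC) in sham callus of form A, of 6.95 and 6.77 in sham callus of form B, and of 6.81 and 6.57 in OVX callus. Its log2 fold change was -0.94 (SE 0.37, limma, adjusted p = 1). The OVX arrays lay below both sham arrays of their form but close to the sham arrays of form B, and Oscar's other probe set gave 6.57 and 6.76 in sham and 6.21 and 6.71 in OVX callus of form A. Atp6v0d2 stood at -0.90 (SE 0.54), but at -0.024 without the sham mSSC array of form A and at -1.78 without the sham mBCSP array, so its size rests on the sham pair. Ctsk stood at 0.29 (SE 0.38) and Acp5 at -0.16 (SE 0.80).

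E2 treatment of ovariectomized mice was compared as OVX + E2 against OVX callus, which shares the OVX arrays with the comparison above. Of the 8 genes 7 pointed up with E2, 4 of them at an unadjusted p under 0.05, and limma called 0 of them, beside 0.0207% of all genes (3 of 14504, with 332 at an unadjusted p under 0.05). The median log2 fold change was 0.83, against 0.02 over all tested genes, of which 53.3% pointed up. Dcstamp was tested only because it was bright on the OVX + E2 arrays, so neither count nor median supports a shift of the group.

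Atp6v0d2 had a log2 signal of 9.64 on the OVX + E2 mBCSP array and 9.64 on the mSSC array, against 7.03 and 7.14 in OVX and 7.33 and 8.65 in sham callus of form A. The arrays with E2 were the brightest of all 17 for this probe set, the nearest being the uninjured sham mBCSP array of form C at 9.39. The log2 fold change against OVX was 2.55 (SE 0.54, limma, adjusted p = 0.433). Its other probe set, not used in that fit, gave 10.27 and 9.03 with E2 against a mean of 6.92 in OVX callus, a difference of 2.73 (SE 0.47, limma, adjusted p = 0.282).

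Dcstamp stood at 8.01 (mBCSP) and 8.04 (mSSC) with E2, and at 6.92 and 5.95 in OVX and 6.23 and 5.95 in sham callus of form A, where 5.95 is the floor. No other array passed 6.15 outside form A, so the gene was clear of the floor in OVX + E2 callus above all. Its log2 fold change against OVX was 1.59 (SE 0.28, limma, adjusted p = 0.21), and against sham 1.94 (SE 0.28, limma, adjusted p = 0.0908). Where an array lies at the floor the change is understated. Ocstamp, also a fusion gene, stood at 6.60 and 6.82 with E2 and 6.37 and 6.28 in OVX callus, all under the level of the filter.

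Acp5 stood at 12.47 (mBCSP) and 12.03 (mSSC) with E2, above every other array. In OVX callus it stood at 10.83 and 10.43 and in sham callus of form A at 10.95 and 10.63. The log2 fold change against OVX was 1.62 (SE 0.80, limma, adjusted p = 1). Among the 6 arrays of form A alone, a fit added after the data were seen, its adjusted p by limma was 0.0831. That was the lowest of 30 alternatives, and Acp5 was called under none of them.

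The receptors moved less. Tnfrsf11a stood at 7.64 and 7.64 with E2 against 6.69 and 6.98 in OVX callus, a log2 fold change of 0.81 (SE 0.33). Oscar stood at 7.96 and 7.14 against 6.81 and 6.57, a log2 fold change of 0.86 (SE 0.37). Nfatc1 had a log2 fold change of -0.53 (SE 0.31), and its 4 other probe sets gave -0.37 to -0.21. Ctsk, at 0.26 (SE 0.38), and Clcn7, at 0.23 (SE 0.32), were close in both groups. All had an adjusted p of 1 by limma. The other probe sets of Tnfrsf11a and Oscar were too dim to be tested. With E2 against OVX callus that of Tnfrsf11a was 1.05 (mBCSP) and 0.02 (mSSC) higher, and that of Oscar 0.29 and 0.16 higher.

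Against sham callus, which shares the OVX + E2 arrays with the comparison above, OVX + E2 callus differed by 1.65 for Atp6v0d2 (SE 0.54), 1.46 for Acp5 (SE 0.80), 0.56 for Tnfrsf11a (SE 0.33), 0.55 for Ctsk (SE 0.38) and 0.30 for Clcn7 (SE 0.32). None of the 8 passed limma's test (0.0207% of all genes were called, with 359 at an unadjusted p under 0.05). The other probe set of Tnfrsf11a, too dim to be tested, differed by 1.37 (mBCSP) and -1.11 (mSSC) from the sham arrays of form A. For Atp6v0d2 the difference was 2.53 without the sham mSSC and 0.77 without the sham mBCSP array of form A. The adjusted p of Dcstamp ran from 0.0101 (limma, no term for title form) to 0.949 (without the OVX + E2 mSSC array) over the alternatives, and was 0.0905 with no filter. Since only the OVX + E2 arrays brought Dcstamp into the test, these p-values are given as a description and support no call.

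Related genes pointed the same way with E2 in part. Of the 65 tested, 45 pointed up and 20 down (median 0.13), none called, where 53.3% of all tested genes pointed up. Slc9b2, a sodium-proton exchanger of osteoclasts, stood at 1.56 (SE 0.39, limma, adjusted p = 0.745) and Mmp9, the gelatinase of osteoclasts and neutrophils, at 1.72 (SE 0.43). Tnfsf11, the ligand, stood at -0.94 (SE 0.31) and Tnfrsf11b at -0.59 (SE 0.56). Of the related genes Tyrobp (2.26), the adaptor of costimulatory receptors, and Csf1r (2.17), the receptor of CSF1, stood the highest.

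Markers of blood cells were higher on the same arrays. Macrophage and monocyte genes pointed up in 13 of 15 (median 1.46), leukocyte genes in 6 of 6 (median 1.93) and neutrophil genes in 11 of 11 (median 1.66), none called. Of all tested genes 53.3% pointed up, with a median of 0.02. The summed log2 signal of the macrophage list was 14.50 to 15.04 in OVX + E2, 12.75 to 13.55 in OVX and 13.18 to 14.25 in sham callus, and that of the leukocyte list 12.65 to 13.66, 10.69 to 11.61 and 11.48 to 12.77. Of the defining markers, Itgam lay at the floor on 1 of 2 OVX arrays and on neither OVX + E2 array, and Csf1r stood at 10.65 to 10.84 with E2 and 8.44 to 8.70 in OVX callus. Uninjured arrays had macrophage sums of 15.85 to 16.38, above those with E2. Single markers of that list differed in this. Csf1r ran from 9.85 to 11.36 and Cd68 from 9.16 to 9.95 on uninjured arrays. Both ranges hold the values with E2, which were 9.56 to 9.60 for Cd68. Itgam and Adgre1 lay lower with E2 than on every uninjured array. On the uninjured arrays Acp5 was at most 11.19, Dcstamp at most 6.15, Tnfrsf11a at most 7.12 and Atp6v0d2 at most 9.39. The part of myeloid cells in the E2 values was not tested.

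**Figure D4:**
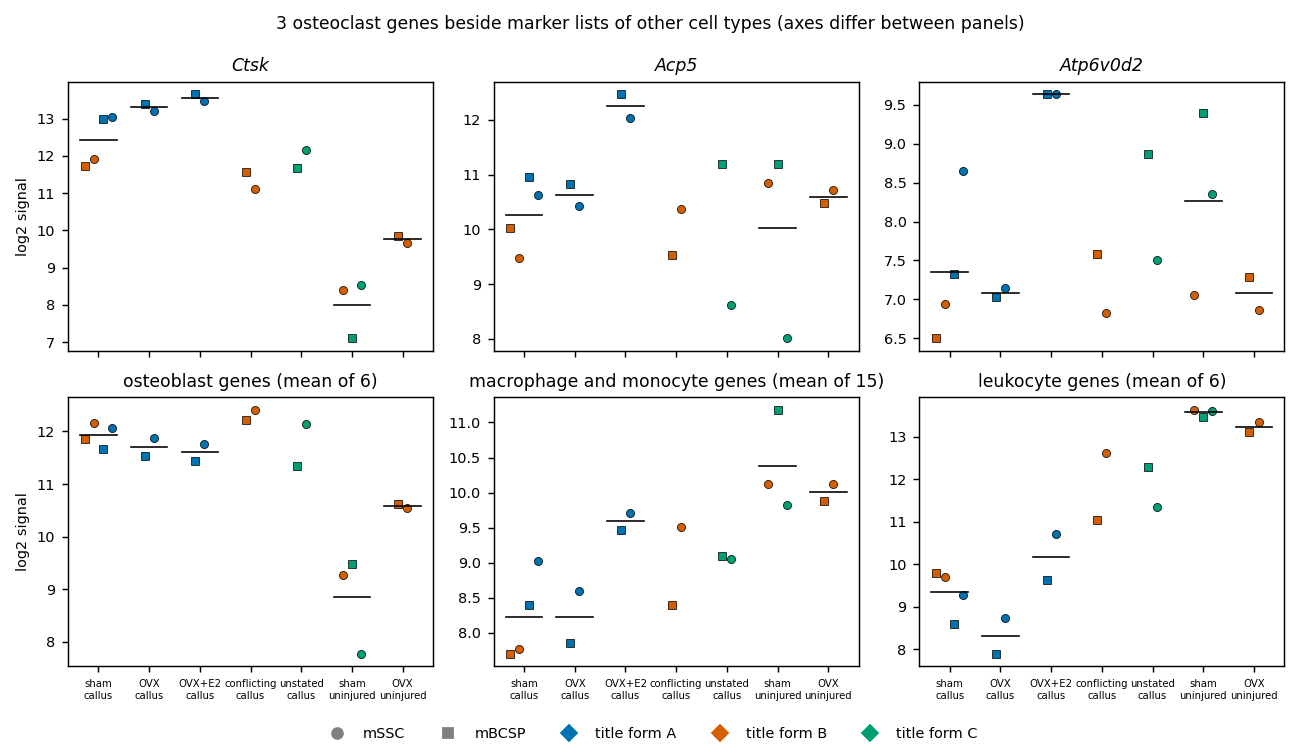
Log2 signal of Ctsk, Acp5 and Atp6v0d2 (top) and mean log2 signal of the osteoblast, macrophage and monocyte, and leukocyte lists (bottom) on each of 17 arrays. Points are drawn as circles for mSSCs and squares for mBCSPs, coloured by title form, with black lines at group means where the ovary surgery is settled. Ctsk and the osteoblast list are both higher in callus than in uninjured bone, but they do not run together within callus. OVX + E2 callus has Ctsk at 13.46 to 13.67 and osteoblast means of 11.45 to 11.76. The conflicting arrays have Ctsk at 11.10 to 11.57 and osteoblast means of 12.21 to 12.41. Acp5 and Atp6v0d2 are highest in OVX + E2 callus. Both blood lists are highest in uninjured bone, and their part in the values of these genes was not tested.

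In uninjured bone OVX was set against sham, which in form B rests on a single sham array. Limma called 0.145% of all genes (21, with 1125 at an unadjusted p under 0.05) and 0 of the 8. Ctsk stood at 9.86 and 9.66 in OVX bone, both of form B, and at 8.40 on the sham array of that form. The sham arrays of form C stood at 7.10 and 8.52, where title form and ovary state cannot be told apart. Its log2 fold change was 1.42 (SE 0.47, limma, adjusted p = 0.407). The osteoblast list differed the same way, with means of 10.54 to 10.62 in OVX and 7.77 to 9.49 in sham bone of both forms.

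The callus arrays of conflicting labels were set against sham callus of the same form without assigning them an ovary state. Limma called 0.29% of all genes (42, with 2259 at an unadjusted p under 0.05) and 0 of the 8, with Ctsk at -0.48 (SE 0.38, limma, adjusted p = 0.576). Tnfsf11, the gene of RANKL, rose by 2.58 (limma, adjusted p = 0.0166), and the myeloid genes Fcer1g (2.28), Fcgr3 (2.33) and Lyz2 (1.89) rose on the same arrays. The callus arrays with no stated surgery, of form C, had Acp5 at 8.62 (mSSC) and 11.19 (mBCSP) a spread between the populations wider than in any other callus pair, and Atp6v0d2 at 8.87 on the mBCSP array.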

How the data were processed

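RNA of each population was sorted into TRIzol, extracted, amplified in 2 rounds and hybridized to Affymetrix mouse arrays, per the study's methods, which describe normalization in dChip and Gene Expression Commons. The submitters' processing notes name MAS5 with no version, so which tool made the deposited values is not settled. The values the authors deposited are log2 signals, 1 column per array. The 17 arrays were grouped by their labels. Of 45101 probe sets 64 controls were left out, and 34945 of the others carry 1 gene symbol, 932 several and 9160 none. For 34741 probe sets the symbol was matched to RefSeq through its gene ID. Quantile normalization was run on linear signals, a floor was set at their 20th percentile (5.951 in log2), and log2 values were used from there. For each gene the probe set of highest mean was used. The test took the 14504 genes that reached the 40th percentile (log2 7.20) on 2 or more arrays.

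Fits used limma 3.58.1 in R 4.3.3 (lmFit, eBayes with trend) over all 17 arrays, with terms for population and title form beside injury or group, and Benjamini-Hochberg adjustment over all tested genes. A gene was called at an adjusted p under 0.05. The fit was tested on simulated data. Alternatives changed the normalization, floor, filter, probe set, form term, moderation and placing of arrays with unsettled surgery, and left out each array in turn. The genes named are all 10 members, the called genes and those of smallest p of the related lists, and the 3 genes most like Ctsk by Spearman rho. Not every gene that this rule covers is named. Members and lists were chosen with earlier results of these data known. Of the 69 related genes 66 had a named probe set. The number of arrays limits the precision. No 2 arrays held identical values.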

Additional observations from a re-analysis of the deposited data

Results flagged for a closer look

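In the groups of 4 sham callus and of 5 uninjured arrays, a single array stood far from the rest for 4 of the 38 combinations of probe set and group, where chance gives about 1 in 20. All 4 lie in uninjured bone. For Acp5 the sham mSSC array of form C was the lowest, at a log2 signal of 8.01, with the other 4 at 10.49 to 11.19. For the Atp6v0d2 probe set not used in the fit the sham mBCSP array of form C was the highest, at 7.62, with the others at 5.95 to 6.25. For Dcstamp the sham mSSC array of form C was the highest, at 6.15, with the others at 5.95 to 5.98, all close to the floor. For 1 of the Nfatc1 probe sets not used in the fit the sham mBCSP array of form C was the lowest, at 8.96, with the others at 9.63 to 9.89. All 4 values come from the 2 uninjured arrays of form C, and the part of the title form in them was not tested.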

How the results depend on the processing

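Ctsk rose in callus under all 29 alternatives tried, by 2.26 to 3.80 on the log2 scale, with an adjusted p of 0.000512 or less, and within 2.53 to 3.30 when single arrays were left out. The count of members called in callus became 2 when every probe set was tested on its own, where Nfatc1 joined Ctsk. In OVX + E2 against sham callus it became 1, Dcstamp, with no term for title form, with it as a random block and with the unstated arrays counted as sham, and it ran from 0 to 1 when single arrays were left out (1 without either OVX callus array, 0 without any sham or OVX + E2 callus array). Dcstamp entered this test through the OVX + E2 arrays alone, so that count is no support. In the other comparisons it stayed 0 under all alternatives that could be fitted. Signs of small differences turned. In callus against uninjured bone, the probe set of widest range gave 0.32 for Atp6v0d2 and -0.080 for Nfatc1, the fit without the form term gave 0.23 for Acp5, and sham arrays alone gave -0.16 for Clcn7, which ran from -0.039 to 0.16 when single arrays were left out. In OVX against sham callus, Acp5 stood at 0.36 without the form term, 0.29 with the form as a random block and 0.021 when the arrays of conflicting labels joined OVX, and ran from -0.43 to 0.11 when single arrays were left out. Ctsk stood at -0.10 there with those arrays in OVX. Over all genes, calls ran from 3533 (sham arrays alone) to 12898 (every probe set tested) in callus against uninjured bone, from 0 to 8 in OVX + E2 against OVX callus, from 0 to 7 in OVX + E2 against sham callus, from 0 to 2 in OVX against sham callus, from 0 to 6 for the interaction, from 0 to 995 in conflicting against sham callus (995 and 993 without either unstated callus array) and from 6 to 485 in OVX against sham uninjured bone. The cause was not tested. A fit of the 6 form A arrays alone was added after the data were seen and called 0 of the 8 in each callus comparison. The labels give no replicate numbers to pair arrays across groups. With the mSSC and mBCSP pairs that the title codes give as a block, no call between the populations changed. Atp6v0d2 in OVX against sham callus ran from -1.78 to -0.024 when single arrays were left out, and in OVX + E2 against sham callus from 0.77 to 2.53. OVX against sham uninjured bone could not be fitted without the sham mSSC array of form B. Signals near the floor limit Dcstamp, Ocstamp and Calcr.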
